A study of Homo sapiens with 12 samples.

Results

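The genes described here are the SR proteins, the heterogeneous nuclear ribonucleoproteins (hnRNPs) and the kinases and splice-site factors that act with them in pre-mRNA splicing. They were chosen by a rule on names that uses no measured values, although earlier results of these data were known. The rule takes every gene whose symbol begins with SRSF or HNRNP, except 1 that is not analysed here, plus TRA2A, TRA2B, CLK1 to CLK4, SRPK1, SRPK2, PTBP1, RBM5, RBM39, SF3B1, U2AF1 and U2AF2. Of the 11963 genes measured, 41 were members: 11 SR proteins including the related TRA2A and TRA2B, 19 hnRNPs including PTBP1, 6 kinases and 5 factors of splice-site recognition. Each gene was read from its probe set (a group of array probes for the same transcripts) with the highest mean, out of 99 probe sets for the 41 genes, and 29 of the genes had several. Another 11 protein-coding genes that the naming rule covers, SRSF2 and SRSF9 among them, have no probe set annotated to them alone and are not analysed here.

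SR proteins bind enhancer sequences in exons and recruit the splicing machinery to nearby splice sites, whereas many hnRNPs bind silencer sequences and oppose exon inclusion. The activity of SR proteins depends on phosphorylation of their arginine-serine repeats, by SRPK kinases in the cytoplasm, which promotes import into the nucleus, and by CLK kinases in the nucleus, which releases them from storage in nuclear speckles. Many genes of these families make transcripts with an extra exon or a retained intron that are degraded or held in the nucleus, and the proteins act on their own transcripts and on each other's, so the total RNA of a gene and its coding transcript can move apart.

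The arrays, 12 Affymetrix GeneChips, measured RNA of MDA-MB-231, an established human line of triple-negative breast cancer with a mesenchymal character. Cultures had been kept for 24 h with digoxin, a cardiac glycoside and inhibitor of the sodium-potassium pump, with manassantin, a lignan that the series' design text calls manassantin A, with rotenone, an inhibitor of mitochondrial complex I, or with the vehicle DMSO, with 3 arrays in each of the 4 groups. The design text names digitoxin where the sample titles name digoxin, and the titles' name is used here. The sources used here give neither doses nor the oxygen level. They do not say whether replicate arrays are of different cultures, and p-values thus cover the spread between arrays only, which may be technical.

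Genes that mark this line were read first. VIM, CD44, AXL, CAV1 and MSN, 5 markers of mesenchymal breast cancer lines, lay between percentiles 97.3 and 99.8 of all genes, and PGR, CDH1, KRT5 and KRT14, markers of hormone-responsive or epithelial cells, at or below percentile 24.2. ESR1, ERBB2 and EPCAM, also low in this line by its usual description, lay at percentiles 45.6, 67.1 and 66.5, so the arrays do not show these 3 as low. PTPRC, CD3E and PECAM1, markers of blood and endothelial cells, lay at or below percentile 33.7. Arrays read RNA from a whole culture, so fewer cells of a kind and less RNA per cell cannot be told apart. An 18S ribosomal RNA control averaged 10.1 log2 units with digoxin, 9.83 with manassantin and 10.0 with rotenone, against 10.4 with DMSO, and the 3' minus 5' difference of a spiked-in control averaged 2.75, 3.07 and 2.68, against 2.49.

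Digoxin changed most of these genes, while manassantin and rotenone changed 2 each. Calls are limma tests with Benjamini-Hochberg adjustment over all 11963 genes in a comparison, at an adjusted p under 0.05. With digoxin against DMSO, 29 of the 41 members were called, 9 higher and 20 lower, where 54.8% of all genes were called, 28.0% higher and 26.9% lower. With manassantin against DMSO 2 members were called, CLK3 higher and HNRNPM lower, where 0.970% of all genes were. With rotenone against DMSO 2 were called, CLK3 higher and SRSF6 lower, where 6.94% of all genes were. CLK3 was thus called with all 3 compounds, 26 members were called with digoxin alone and 12 with none. These overlaps between compounds were not counted over all genes. The 3 digoxin arrays lay wholly above or below the 3 DMSO arrays for 33 members, where 61.9% of all genes did so. The comparisons against DMSO share the same 3 DMSO arrays.

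**Figure D1:**
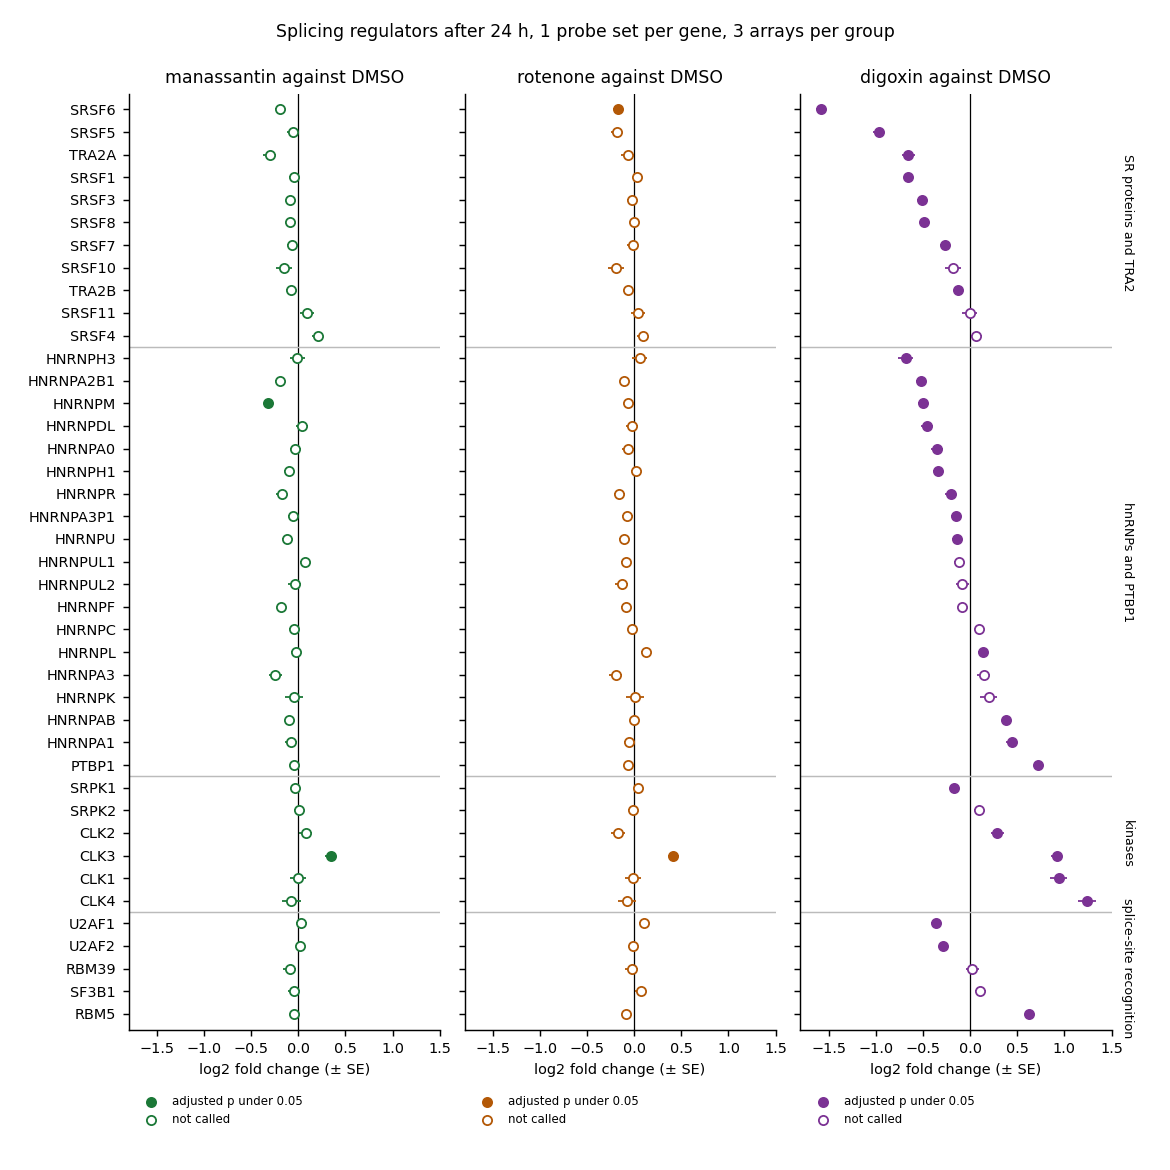
Log2 fold change (horizontal axis, with the standard error as a bar) of each of the 41 genes on its brightest probe set, for each compound against DMSO, with 3 arrays per group and filled points for an adjusted p under 0.05. Digoxin gave 9 filled points to the right of 0 and 20 to the left, while manassantin and rotenone gave 2 each.

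The direction of the small digoxin changes depended on whether arrays were centred on their medians. On the deposited scale the median log2 fold change of all genes was 0.065 and that of the members -0.12. With each array centred on its median gene, all digoxin values moved up by 0.19, the median of all genes became 0.25, and the members' calls became 17 higher and 13 lower, while all genes gave 6952 higher and 2158 lower. Fold changes below are on the deposited scale, and those larger than this shift kept their direction under both. Quantile normalization, another way to scale arrays, gave members 9 higher and 22 lower, SR proteins 0 and 9 and hnRNPs 3 and 10. It called 6498 of all 11963 genes, not split by direction here, with a median log2 fold change of 0.053.

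The SR proteins fell with digoxin as far as they were called: 8 of the 11 were lower and 0 were higher, with a median log2 fold change of -0.49. Of all genes, 26.9% were lower and 28.0% higher. With median centring the counts were 6 lower and 2 higher, where 18.04% of all genes were lower and 58.1% higher. SRSF6, which promotes inclusion of exons with its binding sites, had log2 intensities of 8.45, 8.48 and 8.39 with digoxin, 9.86, 9.83 and 9.79 with manassantin and 9.84, 9.82 and 9.89 with rotenone, against 10.07, 10.02 and 9.99 with DMSO. The digoxin arrays lay far below all others, and the arrays of the other compounds lay a little below the DMSO arrays. SRSF6 was 2.998-fold lower with digoxin than with DMSO, a log2 fold change of -1.58 ± 0.046 (SE, n = 3 per group, limma adjusted p = 2.23e-10), the largest fall among the members.

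SRSF5, an SR protein whose transcript is itself spliced in alternative forms, had log2 intensities of 8.24, 8.38 and 8.30 with digoxin, 9.27, 9.25 and 9.13 with manassantin and 9.15, 9.06 and 9.07 with rotenone, against 9.31, 9.25 and 9.27 with DMSO. All digoxin arrays were lower than all others, and SRSF5 was 1.96-fold lower with digoxin than with DMSO (log2 fold change -0.97 ± 0.055, limma adjusted p = 2.73e-08). TRA2A, an SR-like protein that binds purine-rich exonic enhancers, gave 8.23, 8.26 and 8.44 with digoxin, 8.79, 8.56 and 8.64 with manassantin and 8.90, 8.88 and 8.91 with rotenone, against 9.01, 8.91 and 8.98 with DMSO. Its digoxin arrays were the lowest and its manassantin arrays lay below all DMSO and rotenone arrays, but only the digoxin difference of -0.66 ± 0.069 was called (limma adjusted p = 5.58e-06, against 0.0662 for manassantin).

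SRSF1, the founding member of the family, gave 10.25, 10.28 and 10.22 with digoxin, 10.83, 10.80 and 10.93 with manassantin and 10.94, 10.91 and 10.95 with rotenone, against 10.86, 10.90 and 10.94 with DMSO. SRSF3, the smallest SR protein, which also couples splicing to export of the mRNA, gave 10.996, 10.995 and 11.04 with digoxin, 11.47, 11.36 and 11.48 with manassantin and 11.48, 11.46 and 11.53 with rotenone, against 11.47, 11.53 and 11.56 with DMSO. For both genes the digoxin arrays lay below every other array, and the 3 other groups overlapped. The log2 fold changes with digoxin were -0.65 ± 0.048 for SRSF1 and -0.51 ± 0.049 for SRSF3, with limma adjusted p-values of 2.37e-07 and 2.39e-06.

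SRSF8, a close relative of SRSF2, fell by a similar amount: it had 8.55, 8.51 and 8.47 with digoxin, against 8.999, 8.995 and 9.02 with DMSO, a log2 fold change of -0.49 ± 0.045. Smaller falls were called for SRSF7, which also serves mRNA export (-0.26 ± 0.055), and for TRA2B, the paralog of TRA2A (-0.12 ± 0.044, limma adjusted p = 0.031). Both lost the call with median centring, and TRA2B, which kept its call in 8 of 17 alternatives, then had the other sign. SRSF10, SRSF11 and SRSF4 were not called, with log2 fold changes of -0.18, -0.0045 and 0.064. SRSF11 was called higher at 0.18 with median centring and lower at -0.35 with its probe sets averaged.

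**Figure D2:**
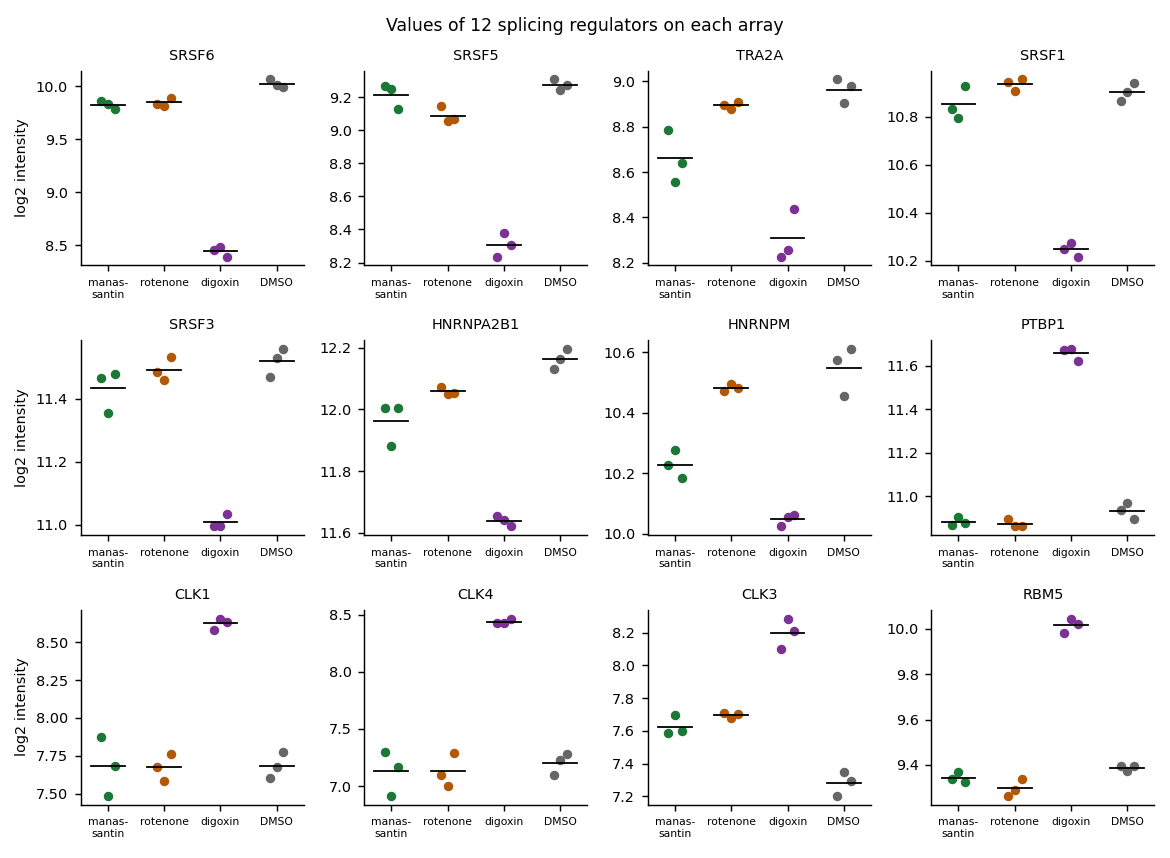
Log2 intensity (vertical axis) of 12 of the genes on each of the 12 arrays, with points for arrays and a bar for the group mean, from manassantin on the left to DMSO on the right. For SRSF6, SRSF5, TRA2A, SRSF1, SRSF3, HNRNPA2B1 and HNRNPM all 3 digoxin points lie below the other groups, and for PTBP1, CLK1, CLK4, CLK3 and RBM5 they lie above.

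The hnRNPs moved both ways with digoxin: of 19, 9 were lower and 4 higher, with a median log2 fold change of -0.12. That is 47.4% lower and 21.1% higher, where 26.9% of all genes were lower and 28.0% higher. With median centring 6 were lower and 7 higher, where 18.04% of all genes were lower and 58.1% higher. PTBP1, the polypyrimidine tract-binding protein that represses many tissue-specific exons, had log2 intensities of 11.67, 11.68 and 11.62 with digoxin, 10.87, 10.91 and 10.88 with manassantin and 10.89, 10.86 and 10.86 with rotenone, against 10.94, 10.97 and 10.90 with DMSO. The digoxin arrays stood above all others, and PTBP1 was 1.65-fold higher with digoxin than with DMSO (log2 fold change 0.72 ± 0.042, limma adjusted p = 3.27e-08). HNRNPA1, a splicing silencer that counters SR proteins at many exons, was also higher and had 10.11, 9.97 and 10.10 with digoxin, against 9.59, 9.58 and 9.69 with DMSO (log2 fold change 0.44 ± 0.062), but with its probe sets averaged the change was 0.19 and not called (limma adjusted p = 0.0561). HNRNPAB, an RNA-binding protein related to the A and B hnRNPs, had 12.21, 12.30 and 12.23 with digoxin, against 11.87, 11.84 and 11.87 with DMSO, a log2 fold change of 0.39 ± 0.044. HNRNPL, which binds CA repeats, was higher by 0.14 (limma adjusted p = 0.038), and for all 4 genes the digoxin and DMSO arrays did not overlap.

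HNRNPA2B1, an abundant hnRNP with roles in splicing and RNA transport, had log2 intensities of 11.65, 11.64 and 11.62 with digoxin, 12.004, 11.88 and 12.01 with manassantin and 12.07, 12.05 and 12.05 with rotenone, against 12.13, 12.16 and 12.20 with DMSO. Its digoxin arrays were the lowest and its DMSO arrays the highest, with the other compounds between them. The fall with digoxin was 1.44-fold (log2 fold change -0.52 ± 0.047, limma adjusted p = 1.28e-06). HNRNPM, which binds GU-rich sites and regulates exons of the epithelial to mesenchymal transition, gave 10.03, 10.06 and 10.06 with digoxin, 10.23, 10.28 and 10.18 with manassantin and 10.47, 10.50 and 10.48 with rotenone, against 10.57, 10.46 and 10.61 with DMSO. Digoxin and manassantin arrays both lay below all DMSO and rotenone arrays, and the digoxin change was -0.50 ± 0.05 (limma adjusted p = 3.58e-06).

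The other called falls among the hnRNPs with digoxin were HNRNPH3 (-0.68), HNRNPDL (-0.46), HNRNPA0 (-0.35), HNRNPH1 (-0.34), HNRNPR (-0.21), HNRNPU (-0.14) and HNRNPA3P1 (-0.15). With probe sets averaged HNRNPH3 was called higher at 0.34, while HNRNPA0 at 0.014 and HNRNPU at 0.051 were not called. HNRNPU kept its call in 9 of 17 alternatives, and with median centring it had 0.047. HNRNPA3P1 is a pseudogene whose probe set was very dim, at 2.41 log2 units over all arrays. HNRNPK, HNRNPA3, HNRNPC, HNRNPF, HNRNPUL2 and HNRNPUL1 were not called, with log2 fold changes between -0.12 for HNRNPUL1 and 0.20 for HNRNPK. HNRNPA3 was called higher with median centring, at 0.33. HNRNPC, which binds uridine tracts and keeps cryptic exons out of mRNA, had 11.69, 11.74 and 11.72 with digoxin, against 11.61, 11.60 and 11.65 with DMSO.

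All 4 CLK kinases, which phosphorylate SR proteins in the nucleus, were higher with digoxin. CLK4 had log2 intensities of 8.42, 8.43 and 8.47 with digoxin, 7.30, 6.92 and 7.17 with manassantin and 7.10, 6.997 and 7.29 with rotenone, against 7.10, 7.23 and 7.28 with DMSO. The digoxin arrays stood more than 1 log2 unit above every other array, and the 3 other groups overlapped. CLK4 was 2.36-fold higher with digoxin than with DMSO (log2 fold change 1.24 ± 0.097, SE, n = 3 per group, limma adjusted p = 4.36e-07), the largest rise among the members. CLK1 gave 8.58, 8.66 and 8.63 with digoxin, 7.88, 7.49 and 7.68 with manassantin and 7.67, 7.58 and 7.76 with rotenone, against 7.60, 7.68 and 7.77 with DMSO, again with digoxin above all other arrays and no order among the rest. Its log2 fold change with digoxin was 0.94 ± 0.088 (limma adjusted p = 1.94e-06). CLK1 and CLK4 are close paralogs, each read here by 1 probe set that may read several transcripts, and whether each reads its own gene only was not tested.

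CLK3 differed from the other kinases in being called with every compound. Its log2 intensities were 8.10, 8.29 and 8.21 with digoxin, 7.59, 7.70 and 7.60 with manassantin and 7.71, 7.68 and 7.70 with rotenone, against 7.20, 7.35 and 7.29 with DMSO. No array with a compound was as low as a DMSO array, and the digoxin arrays were the highest. The log2 fold changes were 0.92 ± 0.059 with digoxin, 0.34 ± 0.059 with manassantin and 0.41 ± 0.059 with rotenone, with limma adjusted p-values of 7.62e-08, 0.0238 and 0.00172. CLK2 had 8.41, 8.36 and 8.41 with digoxin, against 8.15, 8.10 and 8.07 with DMSO, a rise of 0.29 ± 0.07 (limma adjusted p = 0.00429).

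The SRPK kinases, which act on SR proteins in the cytoplasm, were not called higher on their brightest probe sets on the deposited scale. SRPK1 had 10.95, 10.96 and 10.92 with digoxin, against 11.06, 11.16 and 11.11 with DMSO, a log2 fold change of -0.17 ± 0.047 (limma adjusted p = 0.01) that turned to 0.020 and was not called with median centring, and was 0.20 and called higher with its probe sets averaged. SRPK2 had 8.34, 8.44 and 8.32 with digoxin, against 8.20, 8.26 and 8.34 with DMSO, and its groups overlapped (log2 fold change 0.093, limma adjusted p = 0.163). SRPK2 was called higher with median centring, at 0.28, and with quantile normalization, at 0.15 (limma adjusted p = 0.00105 and 0.0262). The 6 kinases together had a median log2 fold change of 0.60 with digoxin, with 4 higher and 1 lower, where 28.0% of all genes were higher and 26.9% lower. With median centring 5 were higher and 0 lower, where 58.1% of all genes were higher and 18.04% lower.

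Among the 5 factors of splice-site recognition, RBM5 rose with digoxin and both U2AF subunits fell. RBM5, an RNA-binding protein that regulates exons of genes for apoptosis, had log2 intensities of 9.98, 10.05 and 10.02 with digoxin, 9.34, 9.37 and 9.33 with manassantin and 9.26, 9.29 and 9.34 with rotenone, against 9.40, 9.37 and 9.39 with DMSO. Its digoxin arrays stood above all others, 1.55-fold above DMSO (log2 fold change 0.63 ± 0.042, limma adjusted p = 1.16e-07). U2AF1, which reads the AG at the end of the intron, had 10.56, 10.70 and 10.65 with digoxin, against 10.97, 10.98 and 11.05 with DMSO, a log2 fold change of -0.36 ± 0.057. U2AF2, which binds the polypyrimidine tract before it, had 8.13, 8.14 and 8.22 with digoxin, against 8.44, 8.47 and 8.43 with DMSO, a log2 fold change of -0.28 ± 0.048, and the digoxin arrays of both genes lay below all DMSO arrays. U2AF2 was not called with median centring (-0.097) or with its probe sets averaged (0.015).

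SF3B1, the branch point factor mutated in several cancers, had 10.61, 10.70 and 10.65 with digoxin, against 10.52, 10.57 and 10.54 with DMSO, and RBM39, a partner of U2AF2, had 10.66, 10.76 and 10.68 with digoxin, against 10.63, 10.71 and 10.69 with DMSO. Neither was called with digoxin, with log2 fold changes of 0.11 ± 0.061 and 0.024 ± 0.065 and limma adjusted p-values of 0.155 and 0.77. With median centring both were called higher, SF3B1 at 0.29 and RBM39 at 0.21 (limma adjusted p = 0.00147 and 0.0127), and SF3B1 was also called with its probe sets averaged, at 0.21.

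The promoters of members that moved together, or apart, are shown by the 130 bases before the RefSeq transcript start (GRCh38.p14), written 5′ to 3′ on the strand of the gene. CLK1 (chr2:200864659-200864788, minus strand) and CLK4 (chr5:178627051-178627180, minus strand) were the kinases with the largest rises, and SRSF6 (chr20:43457766-43457895, plus strand), SRSF5 (chr14:69767012-69767141, plus strand) and SRSF3 (chr6:36594232-36594361, plus strand) were SR proteins that fell. Where a gene had several starts the most upstream was used. Capitals mark TGACG, or CGTCA where it lies on the other strand, the letters at the core of the binding site of the CREB and ATF factors.
CLK1: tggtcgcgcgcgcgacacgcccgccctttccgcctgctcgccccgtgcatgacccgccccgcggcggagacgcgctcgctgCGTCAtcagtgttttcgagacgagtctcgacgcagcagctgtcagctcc
CLK4: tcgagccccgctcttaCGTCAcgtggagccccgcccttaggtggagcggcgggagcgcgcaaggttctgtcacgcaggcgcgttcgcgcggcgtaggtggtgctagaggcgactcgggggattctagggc
SRSF6: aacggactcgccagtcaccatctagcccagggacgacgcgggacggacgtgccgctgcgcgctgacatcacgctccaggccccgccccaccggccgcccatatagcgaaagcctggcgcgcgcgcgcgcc
SRSF5: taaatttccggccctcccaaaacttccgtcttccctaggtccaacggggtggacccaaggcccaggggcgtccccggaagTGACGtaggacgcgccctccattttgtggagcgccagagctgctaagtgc
SRSF3: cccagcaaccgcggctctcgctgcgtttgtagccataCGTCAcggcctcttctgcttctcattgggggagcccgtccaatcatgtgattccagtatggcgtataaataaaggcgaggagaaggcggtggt
The letters stand in the stretches of CLK1, CLK4, SRSF5 and SRSF3, so in genes that rose and in genes that fell, and not in that of SRSF6. Windows of 300 bases, 250 before and 50 after the start, were at hand for 37 of the 41 members, with 58 windows in all. TGACG on either strand was in 24 of the 58 (41.38%), against 8622 of 35116 windows of all genes (24.55%). By class it was in 7 of 13 windows of SR proteins, 11 of 29 of hnRNPs, 5 of 11 of kinases and 1 of 5 of splice-site factors. The full palindrome TGACGTCA, which contains it, was in 0 of the 58, against 1.848% of all windows. A higher share in members was not particular to TGACG among the motifs counted. CCATNTTG was in 20.69% of the members' windows, against 5.197% of all, and CACGTG in 17.24%, against 7.256%. GGGCGG was in 60.34%, against 44.95%, and CCAAT in 39.66%, against 34.61%. These motifs were chosen after the sequences had been seen, and a match describes letters in the window only.

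Manassantin and rotenone left most members near their DMSO values. With manassantin the members' median log2 fold change was -0.051, where that of all genes was 0.0069, and 15 members did not overlap with DMSO, where 22.4% of all genes did not. HNRNPM had 10.23, 10.28 and 10.18 with manassantin, against 10.57, 10.46 and 10.61 with DMSO, with all manassantin arrays lower, a log2 fold change of -0.32 ± 0.05 (limma adjusted p = 0.0178). CLK3, given above, was the other call. The next members were TRA2A at -0.30 ± 0.069 (limma adjusted p = 0.0662) and SRSF6 at -0.20 ± 0.046 (0.0673), neither called, although both had every manassantin array below every DMSO array. TRA2A was called with the replicate number as a block (limma adjusted p = 0.0461).

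CLK3 with manassantin lost its call when any single array of either group was left out, and HNRNPM lost its call with each but DMSO replicate 2 left out. Both also lost it with a quality control of the array as a covariate, with limma adjusted p-values for CLK3 and HNRNPM of 0.283 and 0.248 with the 18S control and 0.0957 and 0.0707 with the 3' minus 5' difference. HNRNPM had -0.091 when the mean of its 2 probe sets was used, with no call. That mean takes in a dim probe set, under 5.39 log2 units.

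With rotenone the members' median log2 fold change was -0.029, where that of all genes was 0.012, and 15 members did not overlap with DMSO, where 31.2% of all genes did not. CLK3 was 1.33-fold higher with rotenone than with DMSO and kept its call under all 17 alternatives tried. SRSF6 had 9.84, 9.82 and 9.89 with rotenone, against 10.07, 10.02 and 9.99 with DMSO, all rotenone arrays being lower, with a log2 fold change of -0.18 ± 0.046 (limma adjusted p = 0.0407). That call was lost when any array of either group was left out. The other kinases CLK1, CLK4 and CLK2 had rotenone differences of -0.012, -0.075 and -0.17 that were not called, and PTBP1 and RBM5 had -0.061 and -0.091.

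Set against each other, digoxin differed from the other compounds in about as many members as from DMSO, and manassantin and rotenone differed in 2. Digoxin against manassantin gave 30 called members, 13 higher and 17 lower, where 56.7% of all genes were called (28.6% higher, 28.1% lower), and digoxin against rotenone gave 26, 10 higher and 16 lower, where 50.5% were (24.2% higher, 26.3% lower). With median centring these became 20 higher and 8 lower against manassantin and 22 higher and 12 lower against rotenone. All 11963 genes then gave 7237 higher and 2176 lower against manassantin, and 6534 higher and 2095 lower against rotenone. Of the members called against DMSO with digoxin, 24 also differed from both other compounds in the same direction. The same count was not made over all genes, so 24 cannot be read as particular to the members. SRSF6 had log2 differences of -1.39 against manassantin and -1.41 against rotenone, followed by SRSF5 at -0.91 and -0.78, HNRNPH3 at -0.67 and -0.74 and SRSF1 at -0.60 and -0.69. CLK4 was higher by 1.31 against manassantin and 1.31 against rotenone, followed by CLK1 at 0.94 and 0.95, PTBP1 at 0.77 and 0.78 and RBM5 at 0.67 and 0.72.

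Manassantin against rotenone gave 2 called members, where 8.47% of all genes were called. HNRNPM had 10.23, 10.28 and 10.18 with manassantin, against 10.47, 10.50 and 10.48 with rotenone, with a log2 fold change of -0.25 ± 0.05 (limma adjusted p = 0.0101) and no overlap. CLK2 had 8.31, 8.09 and 8.15 with manassantin, against 7.99, 7.79 and 8.01 with rotenone, also without overlap, a log2 fold change of 0.25 ± 0.07 (limma adjusted p = 0.0489). The CLK2 call was lost when any array but manassantin replicate 2 was left out.

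Probe sets of the same gene did not always move together, which bears on genes of these families because a probe set reads only the transcripts that hold its stretch of sequence. The brightest probe set was set against each other probe set of the gene on the same array, for pairs in which both had a mean of at least 5.39 log2 units, and the difference was tested with limma over 3722 such pairs of all genes. With digoxin against DMSO, 30 of 48 pairs of members, in 18 of 28 genes, moved by different amounts (62.5%), where 42.8% of all pairs did. Pairs of a gene share its brightest probe set and are not independent, and the count by gene was not made over all genes. With rotenone it was 3 of 48 pairs (6.25%), where 3.36% of all pairs did. With manassantin limma called 0 of 48, where 0.188% of all pairs were called, and 5 of the 48 had an unadjusted p under 0.05. The share of all pairs under that unadjusted threshold was not counted.

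HNRNPH3, whose protein binds G-rich sequence, had probe sets that moved in opposite directions with digoxin, each of them called. On 208990_s_at, the brightest, its log2 intensities were 8.83, 8.57 and 8.48 with digoxin, 9.38, 9.24 and 9.27 with manassantin and 9.40, 9.33 and 9.36 with rotenone, against 9.27, 9.29 and 9.36 with DMSO. On 210588_x_at they were 9.50, 9.61 and 9.47 with digoxin, 8.81, 8.82 and 8.84 with manassantin and 9.04, 8.99 and 8.98 with rotenone, against 8.76, 8.81 and 8.83 with DMSO. The digoxin arrays thus lay below every other array on the first and above every other array on the second. The digoxin change was -0.68 on 208990_s_at and 0.73 on 210588_x_at, a difference of -1.41 ± 0.084 (limma adjusted p = 5.64e-08). The other probe sets of the gene, 207127_s_at and 210110_x_at, rose by 0.67 and 0.66, so 3 of 4 rose.

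**Figure D3:**
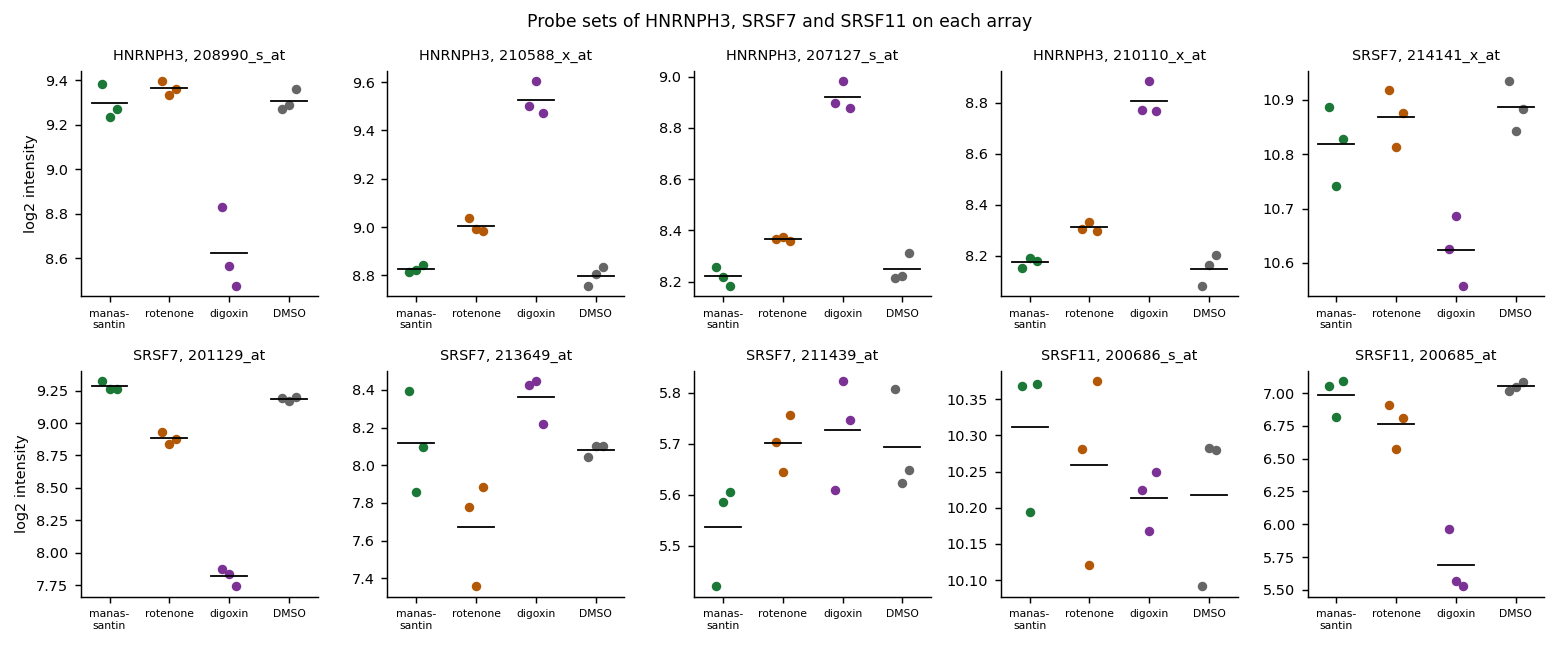
Log2 intensity (vertical axis, its range set for each panel) of 10 probe sets of HNRNPH3, SRSF7 and SRSF11 on each array, with a bar for the mean of the 3 arrays of a group. With digoxin 1 probe set of HNRNPH3 fell and 3 rose, while SRSF7 201129_at and SRSF11 200685_at fell by more than 1 log2 unit and the other probe sets of both genes moved far less.

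SRSF7 and SRSF11 each had a probe set that fell far more than the brightest. For SRSF11, whose brightest probe set 200686_s_at had a digoxin change of -0.0045, the probe set 200685_at had 5.96, 5.57 and 5.53 with digoxin, 7.05, 6.82 and 7.09 with manassantin and 6.91, 6.57 and 6.81 with rotenone, against 7.02, 7.05 and 7.09 with DMSO. Every digoxin array was well below every other array there, and the change was -1.36 (difference 1.36 ± 0.10, limma adjusted p = 3.96e-07). For SRSF7, 201129_at gave 7.88, 7.83 and 7.74 with digoxin, 9.32, 9.26 and 9.26 with manassantin and 8.93, 8.84 and 8.88 with rotenone, against 9.19, 9.17 and 9.20 with DMSO. Rotenone arrays also lay below all DMSO arrays on this probe set, and digoxin arrays lay much lower still. Its changes were -1.37 with digoxin and -0.30 with rotenone, against -0.26 and -0.017 on the brightest probe set 214141_x_at, and both differences were called (1.10 ± 0.048 and 0.28 ± 0.048, limma adjusted p = 5.36e-09 and 0.0096). The other 2 probe sets of SRSF7 differed from the brightest in the opposite sense: with digoxin 213649_at had 0.28 (difference -0.55 ± 0.12, limma adjusted p = 0.00206) and 211439_at had 0.033 (-0.30 ± 0.081, 0.00972), although neither was itself called against DMSO. The digoxin changes of SRSF7 thus ran between -1.37 and 0.28, the widest range of the members over probe sets of at least 5.39 log2 units.

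HNRNPDL, an hnRNP D-like protein that regulates its own splicing, had a digoxin change of -0.46 on 201993_x_at and -1.48 on 209068_at. SRSF3 had -0.51 on 208672_s_at and -1.18 on 208673_s_at. In both genes all of these probe sets fell, but by amounts that differed (1.03 ± 0.058 and 0.67 ± 0.056). SRPK1 went both ways: 202200_s_at fell by 0.17, while 202199_s_at had 7.33, 7.32 and 7.34 with digoxin, against 6.78, 6.75 and 6.77 with DMSO and rose by 0.56. The difference was -0.73 ± 0.056 (limma adjusted p = 4.97e-07), and 202199_s_at also stood 0.28 higher with rotenone, a called difference from 202200_s_at (limma adjusted p = 0.0413) that kept its call in 2 of 11 alternatives.

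HNRNPA0, HNRNPA3 and TRA2B also had probe sets called in opposite directions with digoxin. HNRNPA0 had -0.35 on 201054_at and 0.38 on 201055_s_at. HNRNPA3 had -0.84 on 211932_at and 0.43 on 211930_at, with 0.15 and no call on its brightest. TRA2B had -0.12 on 200893_at and 0.29 on 210180_s_at. SRSF6 and TRA2A had smaller falls on their dimmer probe sets, -1.04 on 206108_s_at of SRSF6 and -0.13, not called, on 213593_s_at of TRA2A.

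Smaller called differences with digoxin were seen in the remaining 7 of the 18 genes. RBM39 had -0.23 on 207941_s_at, against 0.024 on its brightest, and SRPK2 -0.21 on 203182_s_at, against 0.093. SF3B1 had 0.33 on 214305_s_at and 0.34 on 201070_x_at, against 0.11. These dimmer probe sets were called where the brightest was not. HNRNPA1 had 0.074 on 221919_at and 0.068 on 222040_at, against 0.44, and U2AF2 had -0.049 on 218382_s_at, against -0.28. SRSF10 had -0.41 on 204299_at and -0.019 on 213594_x_at, against -0.18. HNRNPU had 0.044 on 200593_s_at and 0.25 on 216855_s_at, against -0.14. With rotenone, HNRNPA1 also had a called difference (0.51 ± 0.11 for 221919_at, called in 5 of 11 alternatives).

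**Figure D4:**
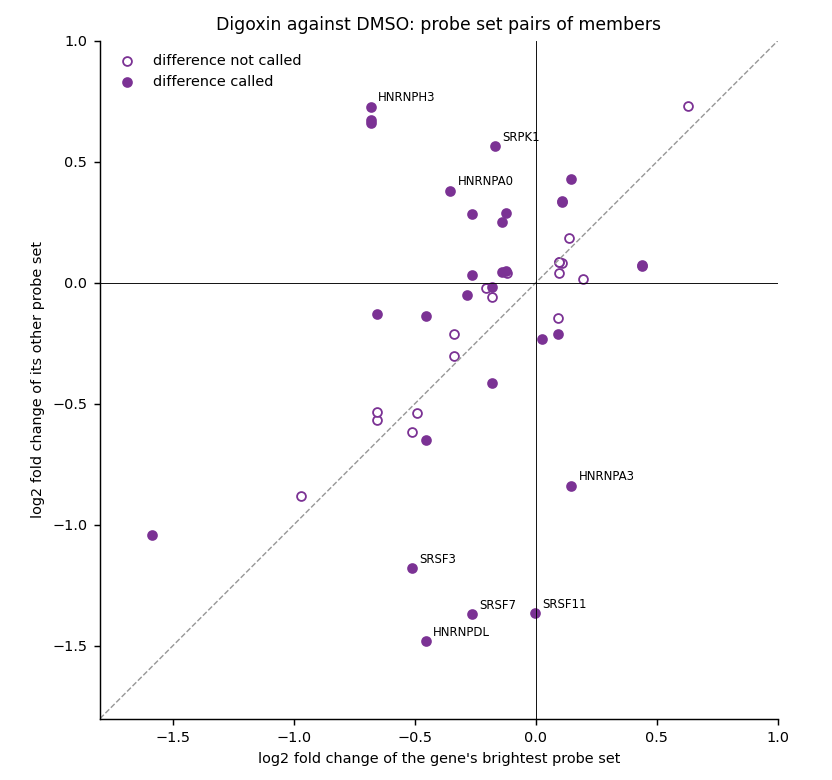
Each point is a pair of probe sets of a member, with the digoxin log2 fold change of the gene's brightest probe set on the horizontal axis and that of its other probe set on the vertical axis, and a dashed line where both are equal. Filled points mark the 30 of 48 pairs whose difference was called, with HNRNPH3 and SRPK1 above the line at the left and SRSF11, SRSF7, HNRNPDL and HNRNPA3 below it.

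Read over all probe sets at or above 5.39 log2 units, the SR proteins were mostly lower with digoxin. Of their 28 probe sets, 18 were lower with digoxin and 1 higher (64.3% and 3.57%), where 34.6% of all such probe sets were lower and 31.4% higher. The hnRNPs did not lean to falls here: of their 40, 12 were lower and 10 higher (30% and 25%), with a median log2 fold change of 0.041. The 9 of kinases gave 2 lower and 5 higher, and the 11 of splice-site factors 3 lower and 4 higher. SRSF1, SRSF3, SRSF5, SRSF6 and SRSF8 were lower on every such probe set, and RBM5 and HNRNPL higher on every one. The second probe set of SRSF5 fell by 0.88 log2 units and that of RBM5 rose by 0.73. Of the 28 members with several such probe sets, the other genes were 5 with calls in both directions, 13 with some called in 1 direction and 3 with none called. These counts were not made over all genes, so calls in both directions cannot be read as particular to the members. With rotenone 3 of the members' 88 such probe sets were higher and 4 lower (3.41% and 4.55%), where 3.85% and 4.03% of all were. The higher ones were of CLK3, SRPK1 and HNRNPH3, and the lower ones of HNRNPA1, HNRNPR, SRSF7 and SRSF10. Probe sets ending in x_at can bind transcripts of related genes and those ending in s_at several transcripts of a gene, and where each probe set lies in its transcript was not analysed here.

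Genes of other splicing lists were read from the same fit, where digoxin gave 28.0% of all genes higher and 26.9% lower, and with median centring 58.1% higher and 18.04% lower. Of 50 listed core spliceosome genes 43 were measured, and with digoxin 21 were higher and 9 lower, with a median log2 fold change of 0.12. With median centring 33 were higher and 5 lower. The largest falls were DDX46 (-0.89) and CDC40 (-0.88), which act in assembly and in the second catalytic step, and SNRNP70 (-0.67), a protein of U1. The largest rises were SNRPD1 (0.58), PRPF18 (0.52) and SF3A1 (0.51). Of 56 other splicing regulators 47 were measured, with 18 higher and 19 lower, and 28 and 7 with median centring. TIA1, a U-rich binder at 5' splice sites, had -1.58 ± 0.17, the helicase DDX17 -1.14 ± 0.048 and RBM14 -0.95. PTBP3, a paralog of PTBP1, had 1.27 ± 0.11, the speckle scaffold SRRM2 1.06 ± 0.14 and FUBP1 0.78, all called by limma (adjusted p = 6.8e-06 for TIA1 and 8.78e-07 for PTBP3).

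Of 18 listed genes for other kinases and phosphatases of SR proteins and for their import 16 were measured, and with digoxin 11 were higher and 2 lower, with a median log2 fold change of 0.23. With median centring 14 were higher and 1 lower, where the median of all genes was 0.25. GSK3B, a kinase with many targets, was 2.62-fold higher with digoxin than with DMSO (log2 fold change 1.39 ± 0.053, limma adjusted p = 1.38e-09), and PPP1R10, a regulator of protein phosphatase 1, 2.04-fold higher. TNPO3, the importin that carries phosphorylated SR proteins into the nucleus, rose by 0.42, while DYRK2 had -0.47 and PPP1CC -0.18. With rotenone, where 6.94% of all genes were called, 2 of the 16 were higher, DYRK3 at 0.36 and GSK3B at 0.24, and 2 of the core genes, SNRPA1 at 0.21 and PRPF4 at 0.20. Of the other regulators 5 were higher and 2 lower with rotenone, led by FUBP1 at 0.28 and RBM14 at 0.26 and by CIRBP at -0.19. With manassantin limma called 0 of the 43, 47 and 16 genes, where it called 0.970% of all genes. Of them 1, 10 and 3 had an unadjusted p under 0.05, where 1896 of all 11963 genes did.

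**Figure D5:**
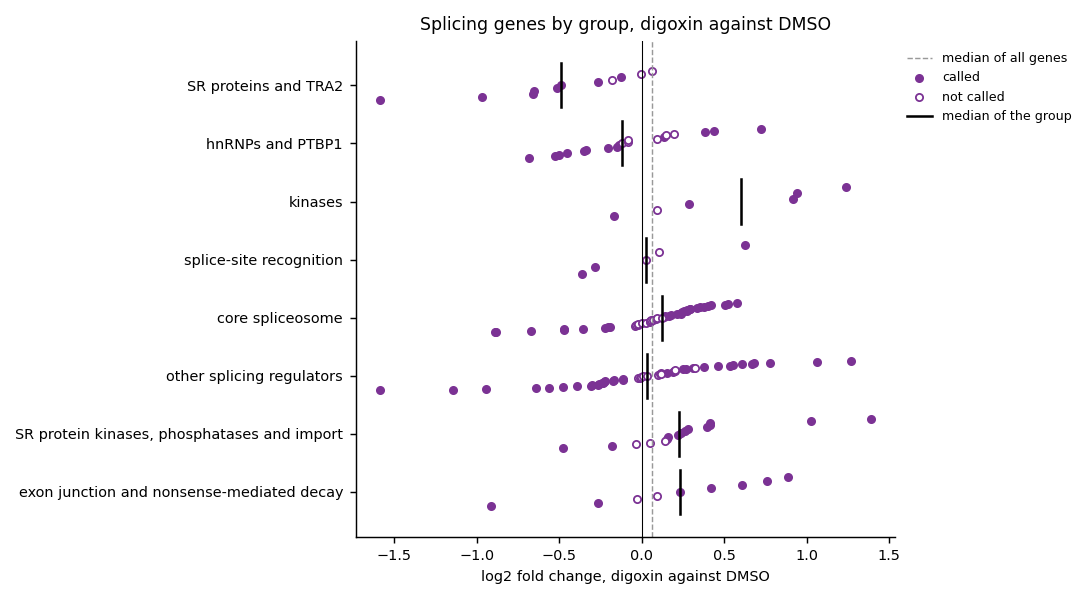
Log2 fold change with digoxin against DMSO (horizontal axis) of each gene in the 4 classes of members and in 4 lists of other genes, with filled points for an adjusted p under 0.05, a black bar for the median of a group and a dashed line for the median of all genes. The SR proteins have their median at -0.49 with no filled point above 0, and the kinases theirs at 0.60.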

How the data were processed

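The authors' deposited table held 22277 probe sets on 12 arrays as log2 intensities, on a common scale when deposited. The log2 base was inferred from the values, 1.65 to 13.75 with array medians between 5.88 and 6.00, and the sources used here do not give the background correction, summarisation or normalization. Per the labels' protocols, RNA came from a column kit and was hybridized after amplification and biotin labelling. A platform annotation gave 1 gene symbol to 19064 probe sets, and these made 11963 genes, each read by the brightest of its probe sets (highest overall mean).

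Groups came from the sample titles. limma 3.58.1 in R 4.3.3 (lmFit and eBayes) was run on all 12 arrays with no term but group. The residual degrees of freedom were 8, and the variance prior added 3.68. Values of ± are the model's standard errors. No filter on dim genes was used, and p-values were adjusted by Benjamini-Hochberg within a comparison. The paired difference of probe sets was fitted the same way, for probe sets at or above the 40th percentile, with p-values adjusted over 3722 pairs. Both fits were tested on simulated data. Precision is limited by the number of arrays. Of all pairs of arrays, 0 were identical.

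The members, the lists of other splicing genes, the classes and the tests were chosen with earlier results of these data known, and no list was tested as a set. Named with values were up to 8 called members by size of rise and 8 by size of fall against DMSO, 4 and 4 where 2 compounds were compared, every member with a called probe set pair, up to 3 called genes in each direction of the other lists, and CLK1, CLK4, SRSF3, SRSF5, TRA2A, TRA2B, RBM5, RBM39, SF3B1 and PTBP1. Other members are given so that each is accounted for.

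Same-numbered arrays deviated together, with every correlation over 0.1, for manassantin against rotenone only (0.11 to 0.36), a hint from the data and not from the labels. Promoter windows came from RefSeq on GRCh38.p14 by symbol. Figures were drawn with matplotlib 3.10.9 in Python 3.11.15. Alternatives covered scaling, the choice of probe set, the dim filter, the variance prior, array weights, the replicate block, the arrays in the fit, quality covariates and leaving out each array.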

Additional observations from a re-analysis of the deposited data

How the results depend on the processing

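Of 23 named members called with digoxin against DMSO, 15 kept direction and call under all alternatives run, 6 changed sign and 7 were past the threshold in fewer than all. All 6 named members not called passed in at least 1: SF3B1, RBM39, HNRNPA3, SRPK2 and SRSF11 with median centring, and SRSF10 with quantile normalization, averaged probe sets, the robust trended prior or only the groups compared. Of 30 called probe set pairs, 18 kept theirs throughout and 0 changed sign. With median centring TRA2B became 0.062, SRPK1 0.020, HNRNPU 0.047 and SRSF11 0.18, the last called (limma adjusted p = 0.0464), while averaging gave SRSF11 -0.35, also called. With all probe sets of a gene averaged, HNRNPH3 became 0.34, SRPK1 0.20, TRA2B 0.071, HNRNPU 0.051, U2AF2 0.015 and HNRNPA0 0.014, HNRNPA1 lost its call at 0.19, and HNRNPH3 became 0.21 against rotenone and 0.34 against manassantin. These genes have probe sets that moved apart, as given above. The mean of U2AF2 also takes in a dim one of its 3 probe sets, under 5.39 log2 units and not shown above. The mean of SRSF11 likewise takes in a dim one of its 3.

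The 2 calls of manassantin, of rotenone and of manassantin against rotenone depended on the setting. Manassantin against DMSO gave 1 with median centring, 8 without dim genes, 9 with a robust trended prior, 5 when arrays were weighted and 0 with the 18S covariate, the 3' minus 5' covariate or only the groups compared. In the same order, the calls among all genes went from 116 to 71, 491 (of 7178), 503, 278, 3, 48 and 4. Rotenone against DMSO gave 7 with the prior, 5 with array weights and 1 with centring, every probe set tested, either covariate or only the groups compared. There the calls among all genes went from 830 to 1312, 1614, 814, 988 (of 19064 probe sets), 339 (18S), 696 (3' minus 5') and 859. Manassantin against rotenone gave 5 without dim genes, 6 with the prior, 4 with array weights and 1 with every probe set, the 18S covariate or only the groups compared. Among all genes the calls then went from 1013 to 1540 (of 7178), 1545, 1364, 1298 (of 19064 probe sets), 688 and 680. The rotenone probe set pairs went to 1 of 3 with no minimum and with the 18S covariate, while the called pairs of all genes went from 125 to 58 (of 7101) and 33. The cause was not tested. Both covariates were chosen after the data had been seen.

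Leaving out each array in turn gave 0 to 1 called members for manassantin against DMSO, 1 for rotenone, 25 to 28 for digoxin, 1 to 3 for manassantin against rotenone, 25 to 27 for digoxin against rotenone and 26 to 29 against manassantin, and 0 to 1, 0 to 2 and 21 to 27 probe set pairs with manassantin, rotenone and digoxin. Among all genes the called ones were then 7 to 25, 346 to 500, 5881 to 6329, 500 to 835, 5365 to 5797 and 6000 to 6759. The called pairs of all genes were 0 to 25, 31 to 70 and 1404 to 1588. With the replicate block, the counts were 3, 2 and 30 members for manassantin, rotenone and digoxin against DMSO, 3 for manassantin against rotenone, 27 and 31 for digoxin against rotenone and manassantin, and 0, 4 and 29 pairs. All genes gave 291, 1081, 6784, 1352, 6299 and 6967, and 12, 151 and 1655 pairs. Beside TRA2A with manassantin, the block ended the call of 2 pairs with digoxin, those of HNRNPDL 212454_x_at and TRA2B 200892_s_at, and changed no other named call. With 3 arrays a group, small differences are not separated from the spread between arrays.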

Other observations

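Genes of the exon junction complex and of nonsense-mediated decay, the pathway that degrades transcripts with an early stop codon, also differed with digoxin. Of 15 listed genes 9 were measured, and with digoxin against DMSO 5 were higher and 2 lower, with a median log2 fold change of 0.23, where 28.0% of all genes were higher and 26.9% lower, with a median of 0.065. With median centring 7 were higher and 1 lower, where 58.1% of all genes were higher and 18.04% lower. UPF1, the helicase of the pathway, was 1.85-fold higher with digoxin than with DMSO (log2 fold change 0.88 ± 0.052, limma adjusted p = 3.69e-08), followed by SMG5, a decay factor that binds UPF1, at 0.76 and NCBP2, the small subunit of the cap-binding complex, at 0.61. RBM8A, a core subunit of the exon junction complex, was 1.88-fold lower (log2 fold change -0.91 ± 0.048, limma adjusted p = 1.49e-08), and the nuclease SMG6 had -0.26. With rotenone and with manassantin limma called 0 of the 9, where it called 6.94% and 0.970% of all genes. Of the 9, 3 and 1 had an unadjusted p under 0.05, where 2545 and 1896 of all 11963 genes did.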
